A study of Caenorhabditis elegans with 4 samples.

Results

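The X chromosome of Caenorhabditis elegans carried 80 of the 474 combined AHA-1 binding regions of fed first-stage (L1) larvae. It also carried 4345 of the 23943 peaks of chromatin immunoprecipitation (ChIP) replicate 1 and 3868 of the 20827 peaks of replicate 2. These peaks were chosen by their chromosome alone, as all entries that the 3 deposited lists place on X, 8293 of 45244 in all. The background was the same lists on chromosomes II to V, with 370 combined regions, 15889 replicate 1 peaks and 13849 replicate 2 peaks. Chromosome I, with 1.59 combined regions per Mb against 4.02 to 6.97 on II to V, was kept out of it for all 3 lists, although its replicate peaks were not sparse (244 per Mb in replicate 1, against 245 on X).

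The study comprised 2 anti-GFP ChIP libraries and 2 input libraries, of which only the ChIP libraries are represented by the lists used here. All 4 came from hermaphrodites of 1 strain, OP124, grown on E. coli HB101 at 20 °C and crosslinked with formaldehyde. The strain has the unc-119(ed3) mutation and the bombarded transgene wgIs124, which brings in aha-1 tagged with TY1, EGFP and FLAG together with unc-119, and it had been outcrossed 3 times. The genotype names no aha-1 mutation, and binding was read from the tagged copy in whole larvae, so the cells behind a peak are unknown. The labels do not say whether replicates came from separate cultures.

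AHA-1 is the worm ortholog of mammalian ARNT, a transcription factor of the basic helix-loop-helix PAS family. It binds DNA as a dimer, and its known partners include AHR-1, the aryl hydrocarbon receptor, HIF-1, which acts in hypoxia, and CKY-1. The X chromosome is present as a pair in hermaphrodites, where the dosage compensation complex lowers transcription from both copies, and it holds few genes that are active in the germ line. By the RefSeq gene table (WBcel235 assembly), aha-1 and ahr-1 lie on chromosome I, unc-119 on III, and hif-1 and cky-1 on V, so none of these genes is on X.

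All positions are 1-based WormBase WS220 coordinates as deposited, and the length of a chromosome stands for the largest peak end in any list, 17714772 bp on X. The authors' peak score has no stated scale, and many peaks share its highest value, 3.39 in replicate 1 and 3.01 in replicate 2. Over the nuclear chromosomes 1212 peaks of replicate 1 and 491 of replicate 2 had this score. Ranks run over the nuclear peaks from the highest score down, and ranks up to 1212 or 491 are ordered only by the number in the authors' peak name. What these numbers rank by is not stated, so the order among tied peaks may not be one of strength. Read depth is unknown. Intervals are 95% Clopper-Pearson (exact binomial) intervals. They reflect only how many peaks were counted, as if each were independent of its neighbours.

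The X region of lowest combined q-value ran from 4142059 to 4143060 (1002 bp, q = 3.70e-45) at 23.4% of the length of X from its left end. It held 3 peaks of replicate 1, the best at rank 15, and 1 peak of replicate 2 at rank 2. The midpoints of these best peaks lay 19 bp apart. A region of higher q-value lay on its left side, from 4139640 to 4139976 (q = 4.87e-04), with a best rank of 893 in replicate 1 and 121 in replicate 2. The 2 regions together spanned 3421 bp. Ranks come from lists of unequal length, so a difference between the 2 ranks of a region is no measure of change.

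The next regions were broad. That from 1503629 to 1505244 (1616 bp, q = 3.99e-31) lay near the left end and had best ranks of 4 and 22 in replicates 1 and 2. That from 16929351 to 16931890 (2540 bp, q = 3.01e-29) lay near the right end, with best ranks of 76 and 90. The latter was the widest X region and held 5 peaks of replicate 1 and 3 of replicate 2. Another broad region, from 6740267 to 6742448 (2182 bp, q = 2.13e-13), had best ranks of 270 and 1030. Its best replicate 2 score was 2.31, so among the 12 X regions of lowest q-value it was the exception, since the best peak of the other 11 had the highest score of both lists.

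The other 8 of these 12 regions were between 388 and 931 bp wide. The narrowest, from 3116205 to 3116592 (q = 1.51e-10), had ranks 17 and 198. Ranks 12 and 48 were those of the region from 5840948 to 5841440 (493 bp, q = 6.50e-12), and that from 14525565 to 14526170 (606 bp, q = 1.90e-14) had ranks 65 and 31. These 3 each held a single peak of each replicate. Replicate ranks of 200 and 40 were found for 11605624 to 11606524 (q = 1.61e-11), and of 120 and 23 for 4208676 to 4209460 (q = 1.02e-10). The widest of the 8, from 10568281 to 10569211 (q = 1.65e-09), held 2 peaks of each replicate, the best at ranks 157 and 421. Ranks 104 and 95 belonged to the region from 2996768 to 2997379 (q = 3.87e-09), and ranks 24 and 68 to that from 11093824 to 11094352 (q = 9.46e-09). With X cut into 3 equal parts, 6 of the 12 regions lay in the left part, 4 in the centre and 2 in the right part.

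Both replicates placed peaks under nearly all X regions. Of the 80 regions, 74 (92.5%, 95% interval 84.4 to 97.2) overlapped a peak of each replicate by 1 bp or more, 4 a replicate 1 peak alone and 2 neither. On chromosomes II to V the share with both was 90.5% (335 of 370). There 24 regions overlapped a replicate 1 peak alone, 3 a replicate 2 peak alone and 8 neither. A peak of any rank counted, and the lists share the ChIP libraries, so such overlap is not independent support for a region. The difference in the share with both did not pass the test (two-sided Fisher's exact test, odds ratio 1.29, 95% interval 0.511 to 3.88, adjusted p = 0.895). All p-values of this kind were adjusted by the Benjamini-Hochberg method over 9 comparisons of X with II to V, which compare peaks of these libraries and not animals.

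Support was incomplete in 6 X regions. The 4 with replicate 1 peaks alone all lay in the right part of X. They ran from 17479623 to 17480387 (q = 2.27e-07, best rank 355), from 16612108 to 16612877 (q = 3.25e-06, rank 96), from 17684695 to 17685020 (q = 1.09e-04, rank 173) and from 15353861 to 15354338 (q = 0.00272, rank 420). In each of them the best replicate 1 peak had the highest score, while replicate 2 listed no overlapping peak. The 2 with no peak in either list lay in the left part, from 3007402 to 3007777 (q = 4.24e-05) and from 293241 to 293626 (q = 8.41e-05).

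Under most X regions the best-ranked peak shared the highest score, as it did in 72 of 80 regions in replicate 1 (90.0%, 81.2 to 95.6), in 55 in replicate 2 (68.8%, 57.4 to 78.7) and in both lists in 51 (63.8%, 52.2 to 74.2). The II to V shares were 85.7%, 49.5% and 45.9%, and these differences were not tested. The median best rank on X was 211.5 in replicate 1 and 202.5 in replicate 2. Across the 74 regions with peaks in both lists, Spearman's rho of the best ranks was 0.36, and rho between q-value and best rank was 0.62 in replicate 1 (78 regions) and 0.56 in replicate 2 (74 regions). These are descriptions over regions whose values share the ChIP libraries. In 8 of the 74 regions a best rank was beyond 5000, as in the region from 6739090 to 6739424 (q = 0.00414, ranks 16689 and 144). On II to V this held for 43 of 335 regions with peaks in both lists.

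**Figure D1:**
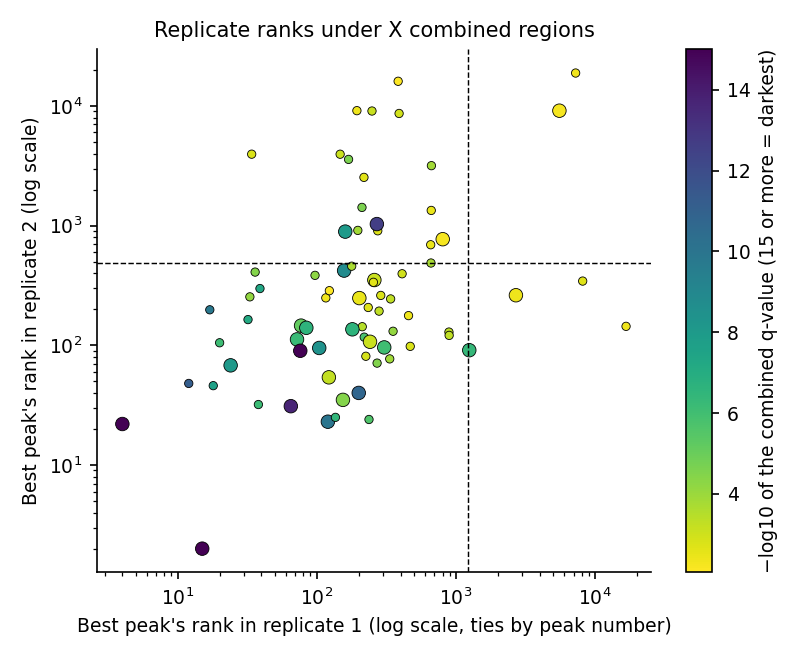
Each point is 1 of the 74 X combined regions with a peak in both replicates, at the rank of its best peak in replicate 1 (x axis) and replicate 2 (y axis), both on log scales. Colour gives −log10 of the q-value, large points are regions of 500 bp or more, and dashed lines mark the last tied highest score (1212 and 491); 51 regions lie inside both lines.

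Wide regions made up more of the combined list on X than on II to V, by an amount that did not pass the adjusted test. The median width on X was 397.5 bp (interquartile range 341 to 548), against 334 bp (293 to 433) on II to V. Of the 80, 27 were 500 bp or wider (33.8%, 23.6 to 45.2), against 19.2% on II to V, where single chromosomes ranged from 13.1% to 24.0%. The odds ratio was 2.14 (1.21 to 3.75), with a two-sided Fisher's exact p of 0.00675 that became 0.0607 after adjustment and so did not pass 0.05. The adjusted p was 0.0262 with chromosome III left out of the background, 0.0469 without V, and 0.156 without IV. On chromosome I, 8 of 24 regions were that wide (33.3%, 15.6 to 55.3), close to the X share, and adding I to the background gave an adjusted p of 0.0971. In 37 X regions (46.3%, 35.0 to 57.8) at least 2 peaks of 1 replicate lay under the region, against 27.6% (23.1 to 32.4) on II to V, which was not tested. A wider region can meet more peaks, so this count is not separate from width.

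The wide X regions were mostly those of low q-value. At q = 1e-05 or below there were 29 X regions (36.3%, 25.8 to 47.8), against 25.1% on II to V (odds ratio 1.69, 0.973 to 2.90, two-sided Fisher's exact p = 0.0518, adjusted p = 0.156). Among these 29, 19 were 500 bp or wider (65.5%, 45.7 to 82.1) and the median was 592 bp, whereas on II to V 34.4% (24.9 to 45.0) of 93 such regions were that wide, with a median of 408 bp. Above that q-value 15.7% of 51 X regions and 14.1% of 277 background regions were 500 bp or wider. The shares of wide regions within these q-value classes were not tested. Over all regions, Spearman's rho between q-value and width was -0.52 on X and -0.51 on II to V. The X list ended at q = 0.00878, and its median was 1.15e-04 against 4.52e-04 on II to V.

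X regions had a density of 4.52 per Mb, against 5.49 per Mb on II to V, where single chromosomes ranged from 4.02 to 6.97. They covered 2361 bp per Mb on X and 2301 bp per Mb on II to V. Peaks with the highest score had a density of 12.4 per Mb on X and 11.6 on II to V in replicate 1, and of 5.93 and 4.57 in replicate 2. As a share of all X peaks of replicate 1 they made up 5.04% (4.41 to 5.73), against 4.93% on II to V (odds ratio 1.02, 0.874 to 1.20, two-sided Fisher's exact test, adjusted p = 0.895).

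Few X regions lay in groups. Counting midpoints within 5 kb, 8 of 80 regions (10.0%, 4.42 to 18.8) had a neighbour, against 20.8% on II to V, where chromosomes ranged from 12.05% to 27.1%. On chromosome I it was 2 of 24 (8.33%, 1.03 to 27.0), below the X share. The gap between X and II to V depended on the distance, with 5.0% against 8.92% within 2 kb and 18.75% (15 regions) against 25.1% within 10 kb. Neighbours are not independent, so no test was made. The 8 regions formed 3 groups. Besides the pair at 4139640 to 4143060 there was a group of 4 from 6737316 to 6744220, spanning 6905 bp, with 7 replicate 1 and 10 replicate 2 peaks under it and q-values from 2.13e-13 to 0.00414. The last was a pair from 8019656 to 8021951 (2296 bp, best q = 2.35e-05).

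**Figure D2:**
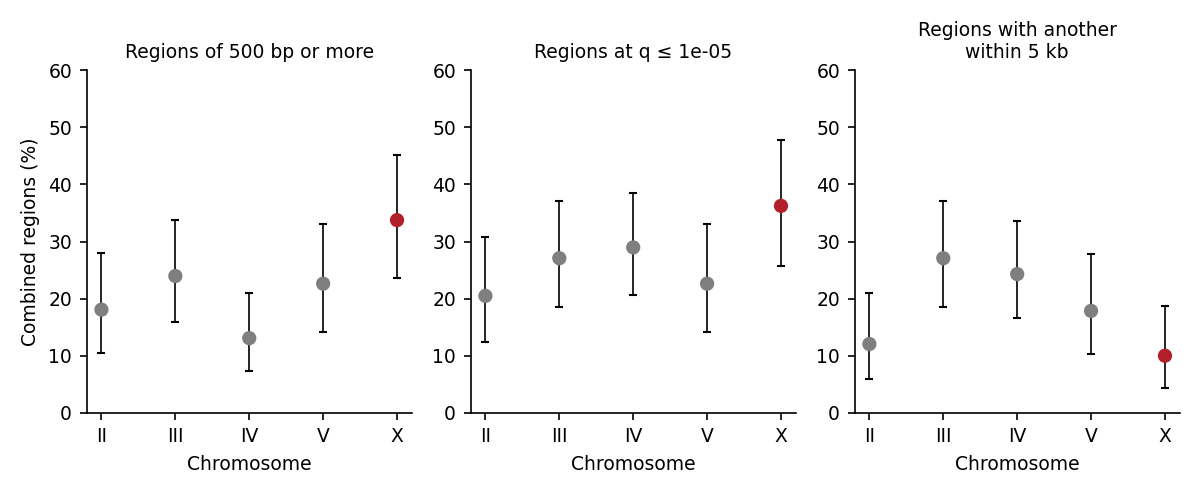
Share of combined regions on chromosomes II to V (grey) and X (red) that are 500 bp or wider, have a q-value of 1e-05 or below, or have another region within 5 kb, in percent with exact 95% binomial intervals. X stands at 33.8%, 36.3% and 10.0%. Its intervals overlap those of II to V except for width on IV (7.34 to 21.0, against 23.6 to 45.2 on X). Chromosome I, which is not drawn, has 33.3%, 4.17% and 8.33%.

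Along X, regions were spread over the whole chromosome, from 293241 to 17685020. The left part held 28 regions (35.0%, 24.7 to 46.5), the centre 29 (36.3%, 25.8 to 47.8) and the right part 23 (28.8%, 19.2 to 40.0), so each interval included an even share. The central share on II to V was 34.3% (odds ratio 1.09, 0.632 to 1.85, two-sided Fisher's exact test, adjusted p = 0.895). Cut into 20 equal bins of 5% of the length, X had between 1 and 7 regions per bin and no bin was empty. All 29 regions of the centre overlapped peaks of both replicates, against 26 of 28 on the left and 19 of 23 on the right. On II to V the share over all parts was 90.5%. Shares by part are not given for II to V, and these X counts by part were not tested. Wide regions numbered 13 in the centre (48.1% of 27, 28.7 to 68.1) and 7 in each outer part. On II to V the centre also held the most, 28 of 71 (39.4%, 28.0 to 51.7). The median width on X was 483 bp in the centre, 372.5 bp on the left and 394 bp on the right.

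The longest stretches of X without a combined region ran from 13700970 to 14480222 (779253 bp) and from 12394104 to 13145060 (750957 bp), where the median gap between regions was 166224 bp. They were not free of replicate peaks, with 201 and 158 in the first and 226 and 182 in the second, in replicates 1 and 2. Neither held a replicate 1 peak with the highest score that overlapped a replicate 2 peak with the highest score. The next longest gaps, of 686772 and 631244 bp, held 1 such peak each. On X, 52 of 61 such peaks lay in combined regions, so few could fall in any gap.

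**Figure D3:**
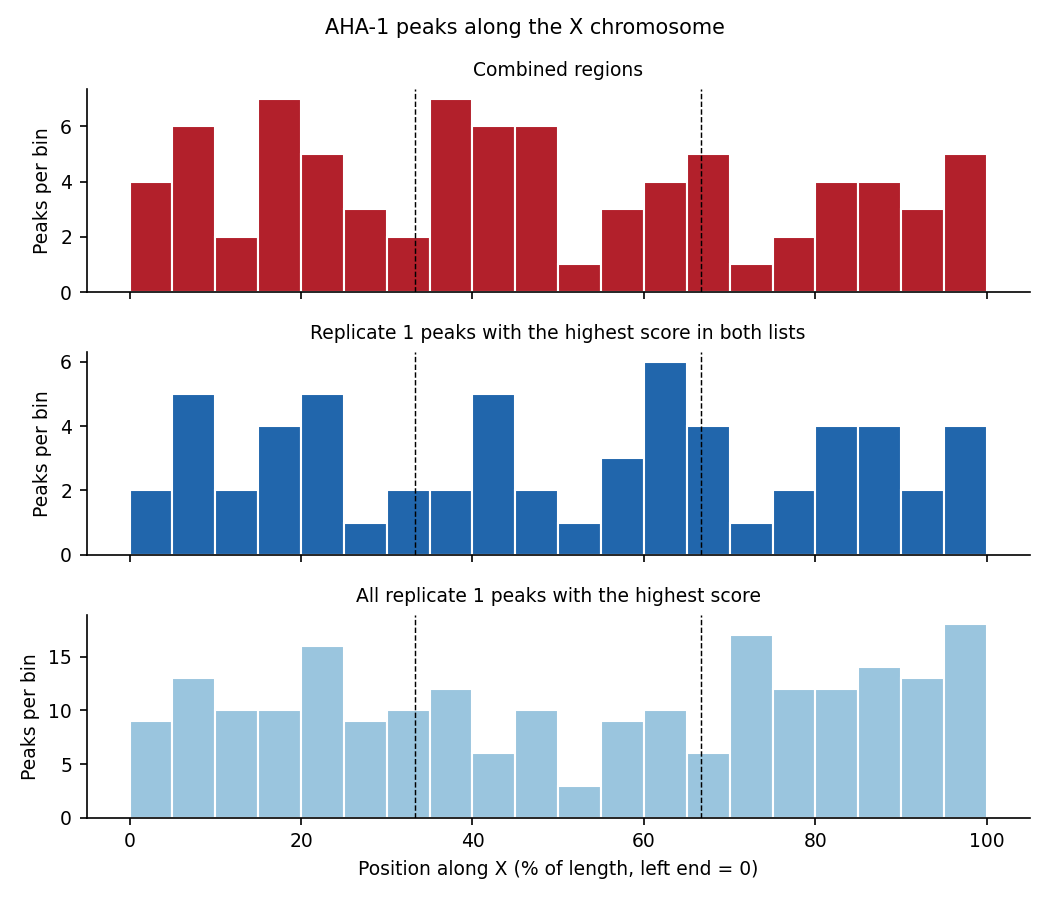
Number of combined regions (top), of replicate 1 peaks with the highest score that overlap a highest-score replicate 2 peak (middle) and of all replicate 1 peaks with the highest score (bottom) in 20 equal bins along X, as percent of its length from the left end. Dashed lines part the left, central and right parts; combined regions number 28, 29 and 23 in them, and all highest-score replicate 1 peaks 74, 54 and 91.

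Of all replicate 1 peaks on X, 1077 (24.8%, 23.5 to 26.1) were reproduced, meaning that a replicate 2 peak overlapped them by 1 bp or more. On II to V the share was 24.5% (odds ratio 1.02, 0.939 to 1.10, two-sided Fisher's exact test, adjusted p = 0.895). Of the X peaks of replicate 2, 1095 of 3868 (28.3%) were overlapped, against 28.3% on II to V. The overlap threshold parted close cases, since 38 replicate 1 peaks on X were overlapped by at most 20 bp and 34 more missed by less than 20 bp. Peaks of 1 list also overlapped each other on X, 882 of 4345 (20.3%) in replicate 1 and 1113 of 3868 (28.8%) in replicate 2, so peak counts exceed the number of separate sites. On II to V these shares were 19.9% and 26.3%. The 1077 reproduced peaks and their partners merged into 927 sites. Replicate 2 had 218 peaks per Mb on X, so some of these overlaps can arise from peak density alone. How many would arise in this way was not tested, so the 927 sites are not a count of replicated binding sites.

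Reproduction on X fell with rank, and in replicate 1 the first 1000 ranks are all tied peaks ordered by peak number. Of the 93 X peaks within the first 500 ranks of replicate 1, 76 (81.7%, 72.4 to 89.0) were reproduced, against 84.8% (80.4 to 88.6) on II to V. The share was 50.0% (38.7 to 61.3, 82 peaks) on X at ranks 501 to 1000, against 60.6% (55.02 to 65.9), and 35.9% (29.6 to 42.7, 217 peaks) at ranks 1001 to 2000, against 36.1%. Beyond rank 15000 it was 19.5% on X. From the replicate 2 side the X shares were 84.1% (75.8 to 90.5) in the first 500 ranks and 44.2% (34.5 to 54.3) at ranks 501 to 1000, and those of II to V were 85.3% and 50.3%.

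**Figure D4:**
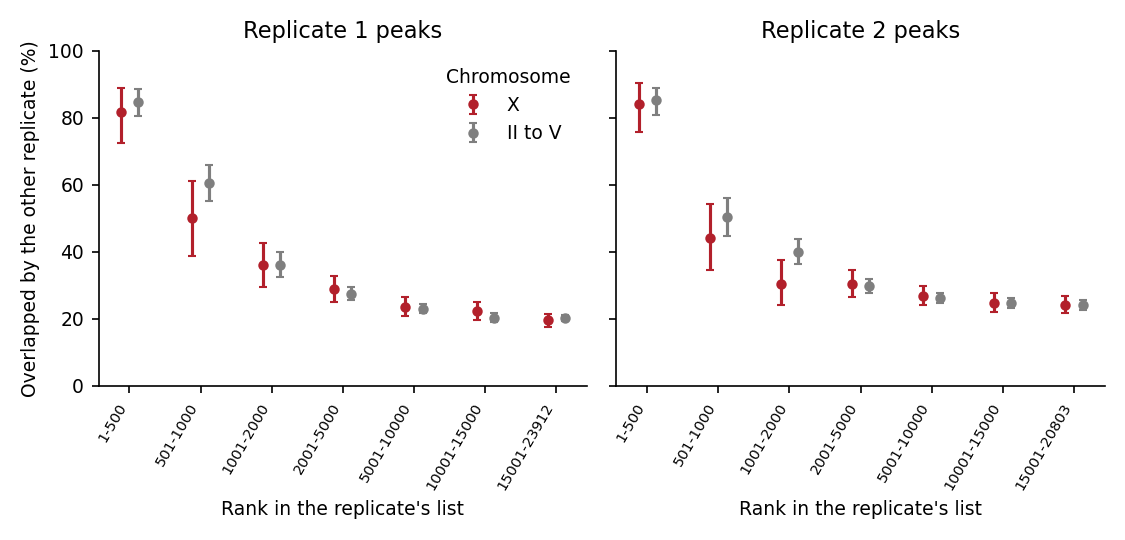
Percent of peaks on X (red) and on II to V (grey) that overlap any peak of the other replicate, by rank in the peak's own list, with exact 95% binomial intervals. Shares start at 81.7% and 84.1% on X in the first 500 ranks of replicates 1 and 2 and end at 19.5% and 24.2% beyond rank 15000.

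Among the tied highest scores, 135 of 219 X peaks of replicate 1 were reproduced (61.6%, 54.9 to 68.1), against 70.0% on II to V, where chromosomes ranged from 66.5% to 73.4%. On chromosome I it was 132 of 210 (62.9%, 55.9 to 69.4), close to the X share. The odds ratio was 0.689 (0.499 to 0.956, two-sided Fisher's exact p = 0.0216), and the adjusted p of 0.0971 did not pass 0.05. Of 8 alternatives run, it passed in 1, at 0.0469, with chromosome IV left out of the background, and adding chromosome I raised it to 0.169. From the replicate 2 side, 89 of 105 highest-score X peaks of replicate 2 (84.8%) were overlapped by a replicate 1 peak, against 85.7% on II to V (odds ratio 0.927, two-sided Fisher's exact test, adjusted p = 0.982).

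Peaks with the highest score in both lists marked 59 sites on X, made of 61 replicate 1 and 62 replicate 2 peaks. This was 3.33 sites per Mb, against 2.92 on II to V. In the 65 overlapping pairs on X the midpoints differed by a median of 42 bp, with 16 and 91 bp as quartiles, while in all 1259 overlapping X pairs they differed by 182 bp, with quartiles of 80 and 308 bp. Of the 61 replicate 1 peaks, 20 (32.8%, 21.3 to 46.0) lay in the central part, against 32.9% on II to V (odds ratio 0.997, 0.512 to 1.90, two-sided Fisher's exact test, adjusted p = 1).

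All 65 pairs had the same 2 scores, so their order rests on the authors' peak numbers alone. The first 10 X pairs by the worse of their 2 ranks all lay in combined regions. The first was the site at 4142157 to 4142411 (ranks 15 and 2), followed by 1504734 to 1505217 (ranks 4 and 22), in the 2 regions of lowest q-value. The third, 1446700 to 1447183 (ranks 38 and 32, midpoints 7 bp apart), lay in a region of 369 bp with q = 6.95e-07. The fourth, 13700486 to 13700976 (ranks 18 and 46), lay in a region of 420 bp with q = 2.45e-08, and the tenth, 806439 to 806922 (ranks 20 and 105), in one of 363 bp with q = 7.42e-07. The regions of these 3 sites were outside the 12 of lowest q-value. The other 5 lay in regions already named.

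The combined list covered 52 of these 61 replicate 1 peaks on X (85.2%, 73.8 to 93.0), against 87.4% on II to V (odds ratio 0.831, 0.350 to 2.14, two-sided Fisher's exact test, adjusted p = 0.895). The 9 that it left out included X from 5429268 to 5429752 (ranks 265 and 62), the first by rank, and X from 10770797 to 10771422 (ranks 521 and 222). The next, from 8368048 to 8368531, had ranks 588 and 489. It was followed by 17627192 to 17627741 with ranks 636 and 418 and by 15606697 to 15607262 with ranks 842 and 211. The site near 10770797 accounted for 2 of the 9, because 2 overlapping replicate 1 peaks met the same replicate 2 peak.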

How the data were processed

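The data were 3 peak lists on WormBase WS220, per the file headers. In the replicate lists the source is SPP via IDR, and the authors deposited a score per peak with no stated scale. The combined list names PeakSeq, and the authors deposited a q-value per region, at most 0.00999. The aligner is not given in the sources used here, nor are versions or how replicates were combined, and read depth is unknown. Peaks were ranked by score and then by the authors' peak number; mitochondrial peaks were left out. Shares on X and on II to V were compared with Python 3.11.15 and SciPy 1.17.1 by two-sided Fisher's exact tests, adjusted over 9 comparisons, with functions tested on simulated data. Overlap meant 1 bp or more, and chromosomes were cut into 3 equal parts. Regions were named by rule: the 12 X regions of lowest q-value, groups within 5 kb, regions lacking a replicate peak, the first 10 pairs by the worse rank and up to 5 pairs without a region. Regions at the lowest and highest values of other counts were named after their values were seen. The peaks, rules and tests were chosen with earlier results of these data known. Genes and sequences under peaks were not analysed here, as the gene table used is of another assembly.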

Additional observations from a re-analysis of the deposited data

How the results depend on the processing

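Values here are odds ratios of X over II to V unless stated. The share of regions of 500 bp or more passed the adjusted test, at 2.39 without chromosome III in the background, 2.29 without V (adjusted p = 0.0262 and 0.0469, two-sided Fisher's exact test) and 2.65 without regions that have a neighbour within 5 kb (adjusted p = 0.0172, an alternative chosen after seeing the data), and its adjusted p ran from 0.0172 to 0.156 over 11 alternatives. Reproduction of highest-score replicate 1 peaks passed at 0.650 without IV (exact, adjusted p = 0.0469; range 0.0469 to 0.982 over 8 alternatives). Results that did not pass changed direction in 12 cases, and none of these passed. Reproduction of all replicate 1 peaks was 0.985 without V. The highest-score share was 0.993 with chromosome I added and 0.942 without V. Cover of peaks with the highest score in both lists was 1.80 with chromosome I added. On chromosome I alone 14 of 49 such peaks (28.6%) were covered, against 85.2% on X and 86.1% to 89.1% on single chromosomes of II to V. Support by both replicates was 0.563 at q of 0.001 or below. Regions in the centre were at 0.786 for the central 50% of a chromosome and 0.893 without neighbouring regions. The central share of such peaks was at 1.14 with an overlap of 50% of both peaks, 1.06 with midpoints within 200 bp, 1.09 from replicate 2 peaks, 1.03 without II and 1.09 without V. The cause was not tested. The share of regions with a neighbour, an untested difference of -10.8 points, was -3.92 points for 2 kb, -6.39 for 10 kb and between -13.3 and -8.61 under its other alternatives. The other results kept direction and side of the threshold under the remaining alternatives; asking for a peak in 1 replicate alone gave 1.17 to 1.19. Reproduction needs both replicates, so leaving one out gives it no value. No paired analysis was possible because the input libraries that share replicate numbers with the ChIP libraries have no list here. Without depths, a missing peak may mean too few reads.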

Other observations

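The highest-score X peaks were counted by part of the chromosome in each replicate list. In replicate 1, 91 of 219 (41.6%, 95% interval 35.0 to 48.4) lay in the right part of X and 54 (24.7%, 19.1 to 30.9) in the centre, while on chromosomes II to V the centre held 39.7%. A right share of this size was not particular to X, since the right part of chromosome II held 44.3% and that of III 38.6%. In replicate 2, 32 of 105 (30.5%, 21.9 to 40.2) lay in the right part and 37 (35.2%, 26.2 to 45.2) in the centre, so the intervals of both shares overlapped those of replicate 1. On chromosome II the right part held 43.6% in replicate 2. Of the 91 replicate 1 peaks in the right part, 49 (53.8%, 43.1 to 64.4) overlapped a replicate 2 peak, against 41 of 54 (75.9%, 62.4 to 86.5) in the centre and 45 of 74 (60.8%, 48.8 to 72.0) on the left. The II to V shares were 70.6% (64.7 to 76.1) in the right part, 68.2% in the centre and 71.9% on the left. From the replicate 2 side the order was another, with 29 of 32 (90.6%, 74.98 to 98.0) overlapped in the right part, 31 of 37 (83.8%) in the centre and 29 of 36 (80.6%) on the left. The replicate 2 shares on II to V were 86.4%, 80.7% and 91.2%, in the same order of parts. The 4 X regions with replicate 1 peaks alone also lay in the right part. These counts were chosen after seeing the data, and no test was made.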
